A study of Ovis aries with 20 samples.

Results

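This account describes 3 genes of the red blood cell in newborn lamb heart: the adult beta globin gene HBB, the fetal beta globin gene HBBF and AHSP, the alpha haemoglobin stabilising protein. They were measured by every probe whose gene name or description in the scanner files names one of them, which gave 3 of the 861 genes that could be named and 5 of the 15008 probes on the array: 2 for HBB, 1 for HBBF and 2 for AHSP. From 10 singleton newborn lambs, muscle of the left ventricle (LV) and the wall between the ventricles (septum) was hybridised as RNA to 20 one-colour sheep arrays, 5 in each of 4 groups. The control lambs were born to ewes infused with vehicle and the cortisol lambs to ewes infused with cortisol at 1 mg/kg per day, in both cases from about gestation day 115 to birth. Hearts were collected between 10 and 480 min after birth, and the time of each lamb was not among the labels used here. The labels name every sample a telemetry newborn and give no breed, sex or blood count.

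Haemoglobin carries oxygen as a tetramer of alpha-type and beta-type chains. In sheep the fetal beta-type chain, HBBF, gives the fetus a haemoglobin of high oxygen affinity and is replaced around birth by the adult chain, HBB; AHSP binds free alpha chains in red cell precursors until they pair with a beta chain. Mature red cells have no nucleus, and globin RNA in blood is carried mainly by their youngest forms, the reticulocytes. Some sheep carry a further beta-type gene, HBBC, which is used in young or anaemic animals.

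The probe sequences show what each signal could come from. The accession column ties HBB probe 1 to the RefSeq transcripts of both HBB and HBBC, HBB probe 2 to a single expressed sequence tag, the HBBF probe to a tag cluster described as the fetal beta subunit, and both AHSP probes to the same tag. Capitals mark the 59 bases that the 2 AHSP probes share; HBB probe 2 and the HBBF probe are given by their first 30 of 60 bases. All are written 5′ to 3′ as in the scanner files.
HBB probe 1: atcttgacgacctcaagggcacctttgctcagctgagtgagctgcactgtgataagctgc
HBB probe 2: gcatctggcctctgcttaatatagacactt
HBBF probe: aaagtccaggtttgcagaaaggacacaact
AHSP probe 1: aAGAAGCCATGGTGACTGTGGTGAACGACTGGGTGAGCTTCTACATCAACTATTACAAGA
AHSP probe 2: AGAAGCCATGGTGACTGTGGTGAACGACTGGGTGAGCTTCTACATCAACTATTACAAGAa
The AHSP probes are thus 1 site read by a pair of probes, and they are not independent readings. The HBB probes shared no run of over 7 bases and read separate stretches. Where 1 probe stands for a gene it is the one with the higher mean signal, HBB probe 1 and AHSP probe 1.

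Signals are given as log2 of the processed spot intensity minus the array's 75th percentile, so that 0 is the level of a probe at that percentile and a step of 1 is a doubling. Probes differ in affinity, so no probe's level is set against that of another. The 75th percentile lay between 98.4 and 440 intensity units, and 57.9% to 72.1% of spots per array were well above background by the scanner software's own test. LV and septum arrays of the same treatment and number were taken as 1 lamb, because their deviations from the group means correlated at 0.447 to 0.813 across probes and each array's own partner was highest for 10 of 10 lambs. Myoglobin (MB), the oxygen store of heart muscle, was well above background on 20 of 20 arrays. So were 8002 of the 15008 probes, and MB was so in both walls. Its presence therefore neither bears out the labelled tissue nor tells LV from septum. Each slide held several arrays: septum alone on slide 1 (6 arrays), LV alone on slide 3 (6) and slide 4 (1, a cortisol lamb), and both walls on slide 2 (3 of LV, 4 of septum). None of the 5 probes was saturated on any array.

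Adult beta globin was well above background in every heart, and 1 control lamb stood apart from all others. In LV, HBB probe 1 read 3.59, 6.95, 3.66, 4.55 and 4.47 in control lambs 1 to 5 and 3.89, 4.46, 5.05, 4.47 and 4.93 in cortisol lambs 1 to 5. In septum the same probe read 3.66, 6.89, 3.66, 4.98 and 3.94 in the control lambs and 3.89, 4.37, 5.71, 5.14 and 4.86 in the cortisol lambs. Control 2 was the highest of the 10 lambs in both walls, and the remaining control lambs overlapped the cortisol lambs. HBB probe 2 gave another order below control 2. It read 3.66, 5.49, 3.36, 3.44 and 3.03 in LV of the control lambs and 2.88, 3.40, 4.93, 4.33 and 3.72 in LV of the cortisol lambs. In septum it read 3.71, 5.58, 3.36, 3.84 and 2.73 in the control lambs and 3.16, 3.40, 5.59, 4.72 and 4.15 in the cortisol lambs. Cortisol 3 was thus level with control 2 on this probe in septum, whereas it lay below control 2 by over 1 log2 unit on probe 1. The HBB probes correlated over the 10 lambs at r = 0.848 (rho = 0.758, lamb means, adjusted permutation p = 0.00311) and over the 20 arrays at r = 0.847. In LV alone r was 0.794 (adjusted permutation p = 0.0165), and it was 0.533 (exact permutation test, adjusted p = 0.24) without control 2.

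Fetal beta globin ranged more widely among the control lambs than among the cortisol lambs. In LV the HBBF probe read -5.97, 1.67, -2.87, -0.34 and 0.12 in control lambs 1 to 5 and -1.45, -1.06, -2.87, -2.07 and -1.96 in cortisol lambs 1 to 5. In septum it read -5.86, 1.69, -2.78, 0.19 and -0.44 in the control lambs and -1.22, -1.11, -2.25, -1.89 and -0.97 in the cortisol lambs. Control 1 was the lowest and control 2 the highest lamb in both walls, and the 5 cortisol lambs lay between them. In control 1 the probe was not well above background on either array, so its level there is only a bound. The bound was set at the dimmest probe well above background on the same array. At that bound control 2 was 46.8-fold higher than control 1 in LV and 114-fold higher in septum. The flag is set per spot, so the bound is nominal and not a guaranteed limit. Without control 1, the other 4 control lambs spanned 4.54 log2 units in LV (23.3-fold) and 4.47 in septum (22.1-fold). The cortisol lambs spanned 1.81 in LV (3.52-fold) and 1.28 in septum (2.43-fold). The SD was 1.88 in LV and 1.86 in septum over those 4 control lambs, and 0.69 and 0.55 over the 5 cortisol lambs. The difference in spread was not tested, and for HBB probe 1 minus HBBF it reversed with another background correction (normexp). There the SD was 0.42 in control and 0.85 in cortisol lambs in LV, and 1.09 and 1.90 in septum. Among the cortisol lambs HBB varied about as much as HBBF: the SD was 0.46 in LV and 0.70 in septum with HBB probe 1, and 0.80 and 0.99 with HBB probe 2. Averaged over the walls, the SD between all 10 lambs was 0.98 for HBB probe 1 and 0.91 for HBB probe 2. The median of 9929 probes was 0.38, and 4.19% of them had an SD as large as that of HBB probe 1 and 5.28% one as large as that of HBB probe 2.

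**Figure D1:**
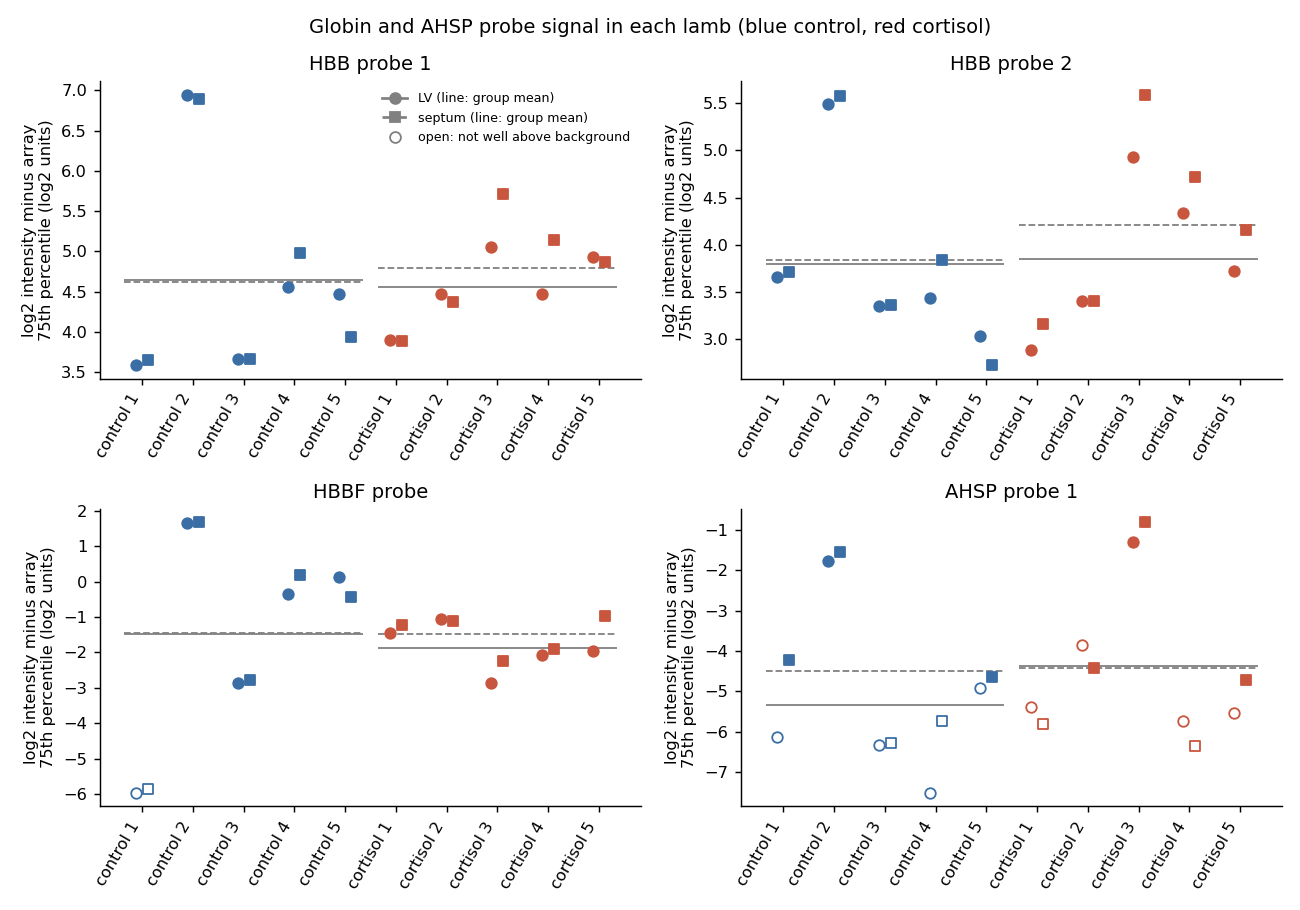
Signal of HBB probe 1, HBB probe 2, the HBBF probe and AHSP probe 1 (y axis, log2 intensity minus the array's 75th percentile) in each of the 10 lambs (x axis), with LV as circles, septum as squares, control in blue, cortisol in red, lines at the group means and open symbols where the spot was not well above background. Control 2 was highest on HBB probe 1 and HBBF in both walls, control 1 was lowest on HBBF, and AHSP stood out in control 2 and cortisol 3.

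AHSP was at or near the background in most hearts. AHSP probe 1 was well above background on 8 of 20 arrays, 2 of 10 in LV and 6 of 10 in septum, and AHSP probe 2 on 2 of 10 and 5 of 10. In LV probe 1 read -6.13, -1.77, -6.33, -7.52 and -4.92 in control lambs 1 to 5 and -5.40, -3.86, -1.30, -5.73 and -5.54 in cortisol lambs 1 to 5. Only control 2 and cortisol 3 were well above background there. In septum it read -4.23, -1.54, -6.29, -5.73 and -4.65 in the control lambs and -5.82, -4.43, -0.81, -6.36 and -4.72 in the cortisol lambs. There control 1, control 2, control 5, cortisol 2, cortisol 3 and cortisol 5 were well above background. Control 2 and cortisol 3 were the highest lambs in both walls, with no other lamb above -3.86. On the 6 arrays where both AHSP probes were well above background they differed by a median of 0.14 and by at most 0.22. On the other 14 arrays the median difference was 0.53 and the largest 3.04, so the order of the lambs below control 2 and cortisol 3 is not a measured one.

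The change of adult against fetal beta globin between lambs was followed by the difference of their log2 signals on the same array, which does not depend on how an array is scaled. HBB probe 1 minus HBBF was 9.56, 5.28, 6.53, 4.90 and 4.34 in LV of control lambs 1 to 5 and 5.35, 5.53, 7.92, 6.55 and 6.88 in LV of cortisol lambs 1 to 5. In septum it was 9.51, 5.21, 6.45, 4.79 and 4.38 in the control lambs and 5.10, 5.48, 7.96, 7.03 and 5.84 in the cortisol lambs. Control 5 had the lowest difference, and thus the most fetal against adult signal, and control 1 the highest. HBB probe 2 minus HBBF was 9.63, 3.82, 6.22, 3.78 and 2.91 in LV of the control lambs and 4.34, 4.46, 7.81, 6.41 and 5.68 in LV of the cortisol lambs. In septum it was 9.57, 3.90, 6.15, 3.66 and 3.16 in the control lambs and 4.38, 4.51, 7.85, 6.61 and 5.13 in the cortisol lambs. Since HBBF was not well above background in control 1, its differences are nominal bounds of the same kind. They were 7.46 in LV and 8.80 in septum with probe 1, and 7.53 and 8.85 with probe 2. At these bounds control 1 was still the highest in septum, while in LV it could lie below cortisol 3. The extremes depended on background correction. With normexp correction, HBB probe 1 minus HBBF ran from 4.07 to 5.20 in control and 3.99 to 5.97 in cortisol lambs in LV. In septum it ran from 2.97 to 5.67 and from 1.68 to 6.42. The highest lamb was then a cortisol lamb in both walls, also with HBB probe 2.

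Control 2, with the most signal of both globins, did not have an extreme ratio of them. On HBB probe 2 minus HBBF it lay beside control 4 (3.86 against 3.72 as lamb means), and on HBB probe 1 minus HBBF beside cortisol 1 (5.24 against 5.23). Cortisol 3, with as much HBB probe 2 signal in septum, had a lamb mean of 7.83, the highest after control 1. The lambs with the most adult beta globin signal therefore included both a low and a high adult to fetal ratio.

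**Figure D2:**
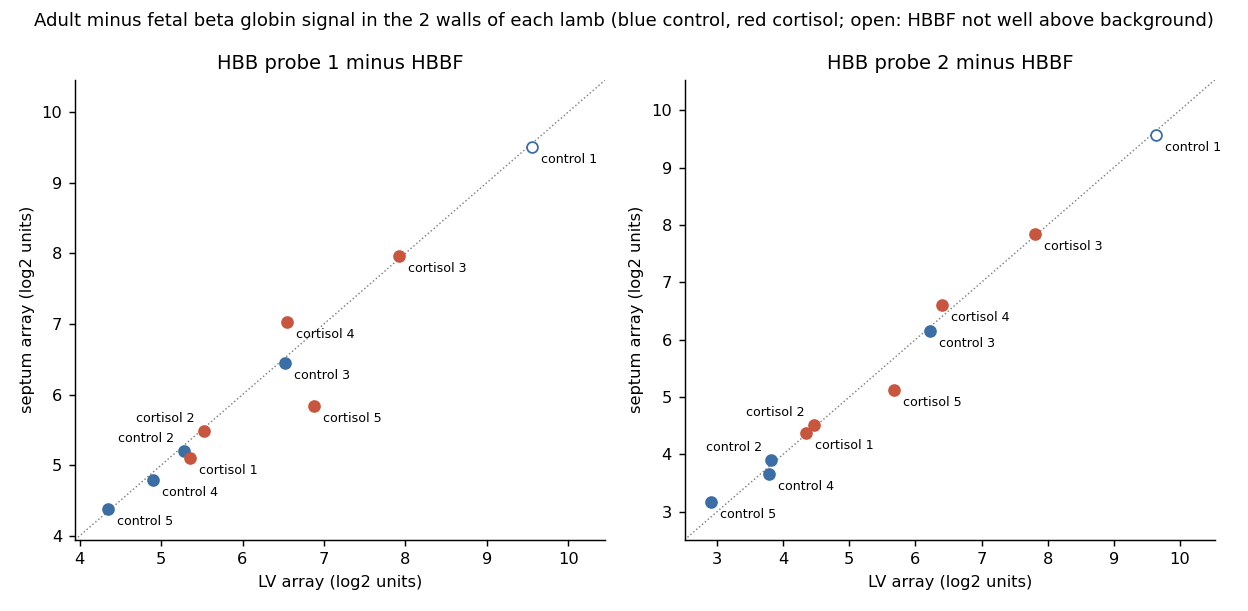
Difference of the log2 signals of adult and fetal beta globin in LV (x axis) and septum (y axis) of each lamb, with HBB probe 1 on the left and HBB probe 2 on the right, control in blue, cortisol in red, an open symbol for control 1, whose HBBF was not well above background, and a dotted line of equality. The walls differed by a median of 0.07 with probe 1 and 0.08 with probe 2, and control 1, whose differences are bounds, stands at its measured values.

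The 2 walls of a heart gave nearly the same globin readings. HBB probe 2 minus HBBF correlated between LV and septum at r = 0.994 (rho = 1.0, 10 lambs, adjusted permutation p = 0.00012), so that the order of the 10 lambs was the same in both walls. The median distance between the walls was 0.08 log2 units and the largest 0.55, in cortisol 5. HBB probe 1 minus HBBF correlated at r = 0.971 (rho = 0.952, adjusted permutation p = 0.00012), and its largest distance was 1.04, again in cortisol 5. Without the 2 lambs farthest from the median, control 1 and cortisol 3, r was 0.981 (exact permutation test, adjusted p = 0.000893) with probe 2 and 0.885 (adjusted p = 0.0176) with probe 1. Both arrays of a lamb share its blood, its RNA handling and, for control 3, control 5 and cortisol 5, a slide, so this is agreement of paired samples and not of independent animals.

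Single probes followed the same pattern. HBBF correlated between the walls at r = 0.979 (rho = 0.939, adjusted permutation p = 0.00012), HBB probe 2 at r = 0.965 (rho = 0.964, adjusted permutation p = 0.00012) and HBB probe 1 at r = 0.933 (rho = 0.939, adjusted permutation p = 0.00054). Against 9929 probes with a median r of 0.72, 0.906% reached the r of HBBF, 2.6% that of HBB probe 2 and 8.22% that of HBB probe 1. AHSP probe 1 correlated at r = 0.895 (rho = 0.673, adjusted permutation p = 0.00672), which 16.5% of probes reached. AHSP was well above background in both walls in control 2 and cortisol 3 alone, so its agreement among the other lambs could not be measured. For HBB and HBBF, r without the 2 farthest lambs was 0.835 with HBB probe 1, 0.929 with HBB probe 2 and 0.905 with HBBF (exact permutation tests, adjusted p = 0.0346, 0.0173 and 0.0176).

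No globin difference between the walls passed the test. Septum minus LV was 0.11 ± 0.44 (SE) for HBB probe 1, 0.20 ± 0.40 for HBB probe 2 and 0.22 ± 0.88 for HBBF (limma, adjusted p = 0.962, 0.905 and 0.962); AHSP was not tested, being well above background on fewer than 10 of 20 arrays. Of the 10069 probes tested, 55 passed, which is 0.546%, and 0 of the 3 globin probes did (0 at an unadjusted p under 0.05). With the lamb as a block, 2065 probes passed, 20.5%, and the globin probes did not (limma, adjusted p = 0.747, 0.462 and 0.735). That fit gives every probe the same correlation between the walls. The globin probes agreed more closely than the median probe, so the fit did not use their own paired spread. The SD of septum minus LV over the 10 lambs was 0.37, 0.28 and 0.42. Septum was the higher wall in 5 of 10 lambs for HBB probe 1, and in 8 of 10 for HBB probe 2 and for HBBF. The 55 calls were 5 without control 2, without control 3 or without control 4, and 313 without cortisol 5. Slide differed largely along with wall, and with slide as a block 0 probes passed in limma (611 at an unadjusted p under 0.05).

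Adult and fetal beta globin did not rise and fall together over the lambs in a way that both HBB probes shared. HBB probe 1 correlated with HBBF at r = 0.65 over the lamb means (rho = 0.442, adjusted permutation p = 0.0984), at 0.687 in LV and 0.607 in septum, and at 0.647 over the 20 arrays. Without control 1 and control 2 the lamb mean r was -0.03 (exact permutation test, adjusted p = 0.967), so the relation rests on those lambs. HBB probe 2 correlated with HBBF at r = 0.185 (rho = -0.04, adjusted permutation p = 0.674) and at 0.201 over the 20 arrays. These are among 36 relations, over which the p-values were adjusted. P-values within a slide, here and below, were adjusted over the fewer relations of that slide. Within slide 3 (6 LV arrays) r with HBBF was 0.738 for HBB probe 1 and 0.304 for HBB probe 2, and within slide 1 (6 septum arrays) it was 0.689 and 0.307 (exact permutation tests, adjusted p = 0.167, 0.633, 0.185 and 0.658).

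What did follow HBBF was the gap between the 2 HBB probes. HBB probe 1 minus HBB probe 2 ran from -0.07 in LV of control 1 to 1.46 in LV of control 2, and from -0.05 to 1.31 in septum of the same lambs. It was 0.30, 1.12 and 1.44 in LV of control 3, control 4 and control 5, and 1.01, 1.06, 0.12, 0.14 and 1.20 in LV of cortisol lambs 1 to 5. In septum it was 0.30, 1.13 and 1.21 in control 3, control 4 and control 5, and 0.73, 0.97, 0.12, 0.42 and 0.71 in the cortisol lambs. The lambs with low HBBF, control 1, control 3 and cortisol 3, had both HBB probes within 0.30 of each other, and those with high HBBF, control 2, control 4 and control 5, had a gap of over 1 log2 unit. The gap correlated with HBBF at r = 0.894 over the lamb means (rho = 0.939, adjusted permutation p = 0.00012), at 0.851 in LV (rho = 0.915, adjusted permutation p = 0.0008) and at 0.898 in septum (rho = 0.939, adjusted permutation p = 0.00012). The raw p of 1e-05 over the lamb means is the smallest that 100000 permutations give. Without control 1 and control 2 it was 0.924 over the lamb means (exact permutation test, adjusted p = 0.0173) and 0.827 in LV (adjusted p = 0.0579). Within slide 3 it was 0.937 and within slide 1 it was 0.917 (n = 6 each, exact permutation tests, adjusted p = 0.00972 each). The gap itself does not depend on array scaling and correlated between the walls at r = 0.944 (rho = 0.915, adjusted permutation p = 0.000309). HBB probe 1 is the probe that the scanner files tie to more than 1 beta-type transcript; whether it also binds fetal beta globin RNA was not tested.

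**Figure D3:**
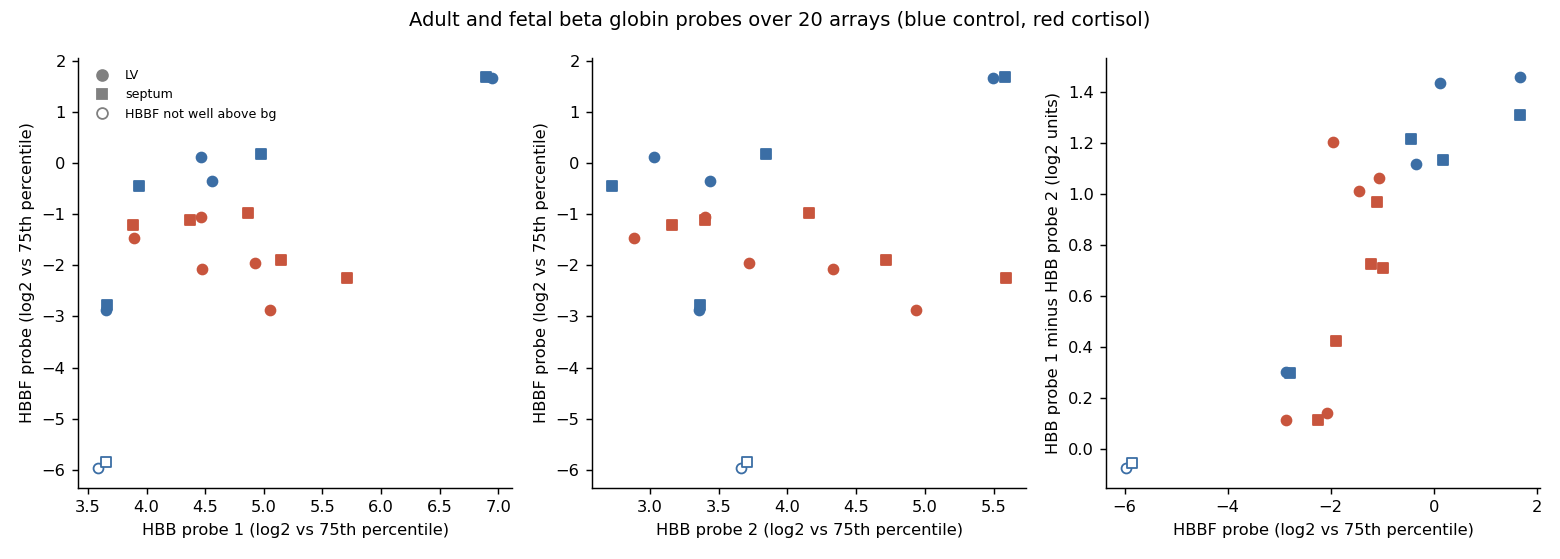
The HBBF probe against HBB probe 1 (left) and HBB probe 2 (middle), and the gap between the HBB probes against the HBBF probe (right), on 20 arrays in log2 units, with LV as circles, septum as squares, control in blue, cortisol in red and open symbols where HBBF was not well above background. Over the 20 arrays r was 0.647, 0.201 and 0.858 from left to right.

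The lambs with AHSP clearly above background in both walls, control 2 and cortisol 3, also had high HBB. Over the 20 arrays AHSP probe 1 correlated with HBB probe 1 at r = 0.676 and with HBB probe 2 at r = 0.704, and AHSP probe 2 did so at 0.659 and 0.676; each pair of arrays shares a lamb. Over the lamb means r was 0.702 with HBB probe 1 (rho = 0.503, adjusted permutation p = 0.0546) and 0.724 with HBB probe 2 (rho = 0.382, adjusted permutation p = 0.0544). Over the 8 lambs left without control 2 and cortisol 3, r with HBB probe 2 was -0.30 for the lamb means, -0.17 in LV and -0.31 in septum (exact permutation tests, adjusted p = 0.655, 0.796 and 0.655). Over the same 8 lambs r with HBB probe 1 in septum was -0.24 (exact permutation test, adjusted p = 0.676). AHSP was mostly not well above background in those 8 lambs, so these values do not show whether AHSP follows HBB among them. Without control 1 and control 2, r with HBB probe 1 was 0.489 in LV and 0.565 for the lamb means (exact permutation tests, adjusted p = 0.383 and 0.283). Over all 10 lambs the relation depended on the setting. With values centred within treatment adjusted p was 0.049 over the lamb means, and with scaling to the array median it was 0.0396 for HBB probe 1 and 0.0388 for HBB probe 2 (permutation tests). With normexp background correction the lamb mean r was 0.0119 with HBB probe 1 and 0.0085 with HBB probe 2 (permutation tests, adjusted p = 0.982 each). Within slide 3 (6 LV arrays) r was 0.681 with HBB probe 1 and 0.797 with HBB probe 2, and within slide 1 (6 septum arrays) 0.748 and 0.935; both slides held control 2 and cortisol 3 (exact permutation tests, adjusted p = 0.167, 0.167, 0.168 and 0.0551). With fetal beta globin, AHSP correlated at r = 0.232 over the lamb means (rho = 0.164, adjusted permutation p = 0.618) and at 0.236 over the 20 arrays. Control 2 had the highest and cortisol 3 one of the lowest HBBF signals among the lambs, while both had high AHSP.

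**Figure D4:**
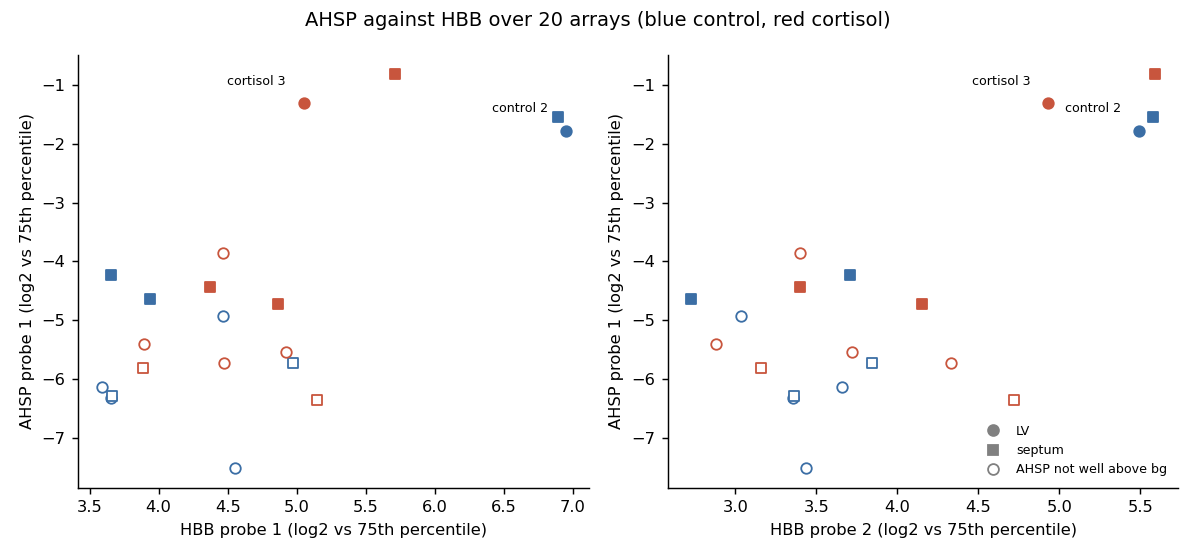
AHSP probe 1 (y axis) against HBB probe 1 (left) and HBB probe 2 (right) on 20 arrays, in log2 intensity minus the array's 75th percentile, with LV as circles, septum as squares, control in blue, cortisol in red and open symbols where AHSP was not well above background. The 4 arrays of control 2 and cortisol 3 lie above -1.8, and all others lie below -3.8.

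Cortisol infusion of the ewe was not followed by a globin difference that passed the test in either wall. In bulk tissue, fewer red cells and less RNA per red cell cannot be told apart. In LV, 3 of the 5 probes were well above background on at least 5 of 10 arrays and were tested. HBB probe 1 averaged 4.64 ± 1.36 (SD, n = 5) in control and 4.56 ± 0.46 in cortisol lambs, a difference of -0.08 ± 0.56 (SE; limma, adjusted p = 0.983). HBB probe 2 averaged 3.80 ± 0.97 and 3.85 ± 0.80, a difference of 0.06 ± 0.49 (adjusted p = 0.986). HBBF averaged -1.48 ± 3.00 and -1.88 ± 0.69, a difference of -0.41 ± 1.17 (adjusted p = 0.963). Of the 9791 probes tested in LV, 0 passed, which is 0% (505 at an unadjusted p under 0.05), and 0 of the 3 globin probes did. AHSP probe 1, not tested in LV, averaged -5.34 ± 2.20 in control and -4.37 ± 1.87 in cortisol lambs, mostly from spots not well above background.

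In septum all 5 probes were tested. HBB probe 1 averaged 4.63 ± 1.38 (SD, n = 5) in control and 4.79 ± 0.70 in cortisol lambs, a difference of 0.17 ± 0.60 (SE; limma, adjusted p = 0.949). HBB probe 2 averaged 3.84 ± 1.06 and 4.21 ± 0.99, a difference of 0.36 ± 0.57 (adjusted p = 0.879). HBBF averaged -1.44 ± 2.95 and -1.49 ± 0.55, a difference of -0.05 ± 1.15 (adjusted p = 0.995). The AHSP probes, which share 59 bases, differed by 0.06 ± 1.09 and 1.37 ± 1.29 (adjusted p = 0.993 and 0.828). The probe 2 value is no measured change, since that probe was well above background in 2 of 5 control and 3 of 5 cortisol lambs, and it was 0.14 ± 0.58 with normexp background correction. Of the 10369 probes tested, 0 passed, again 0% (384 at an unadjusted p under 0.05), and 0 of the 5 globin and AHSP probes did.

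The lamb means gave 0.04 ± 0.57 for HBB probe 1, 0.21 ± 0.52 for HBB probe 2 and -0.23 ± 1.15 for HBBF (limma, adjusted p = 0.99, 0.932 and 0.97), with 0 of 10069 probes passing, 0% (519 at an unadjusted p under 0.05). Single control lambs set the sign of these differences. Without control 2, HBB probe 1 was 0.49 in LV and 0.74 in septum (adjusted p = 0.973 and 0.908) and HBBF was 0.38 and 0.73 (adjusted p = 0.983 and 0.916). Without control 1, HBBF was -1.53 ± 0.75 in LV and -1.15 ± 0.73 in septum (adjusted p = 0.627 and 0.704). In septum the slides differed in sign, with no value past the test. There HBB probe 1 was -0.52 ± 0.84 within slide 1 and 1.20 ± 0.24 within slide 2 (adjusted p = 0.774 and 0.998), and HBB probe 2 was -0.33 ± 0.76 and 1.39 ± 0.35 (adjusted p = 0.851 and 0.998). Within slide 2 septum had only 2 control and 2 cortisol arrays. The unadjusted limma p there was 0.00537 for HBB probe 1 and 0.0122 for HBB probe 2, and 314 of 10322 probes were under 0.05. In LV, HBB probe 1 was -0.56 ± 0.81 within slide 3 (adjusted p = 0.768); slide 2 held 1 cortisol LV array and is not set against it. Control 2 was on slides 1 and 3.

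**Figure D5:**
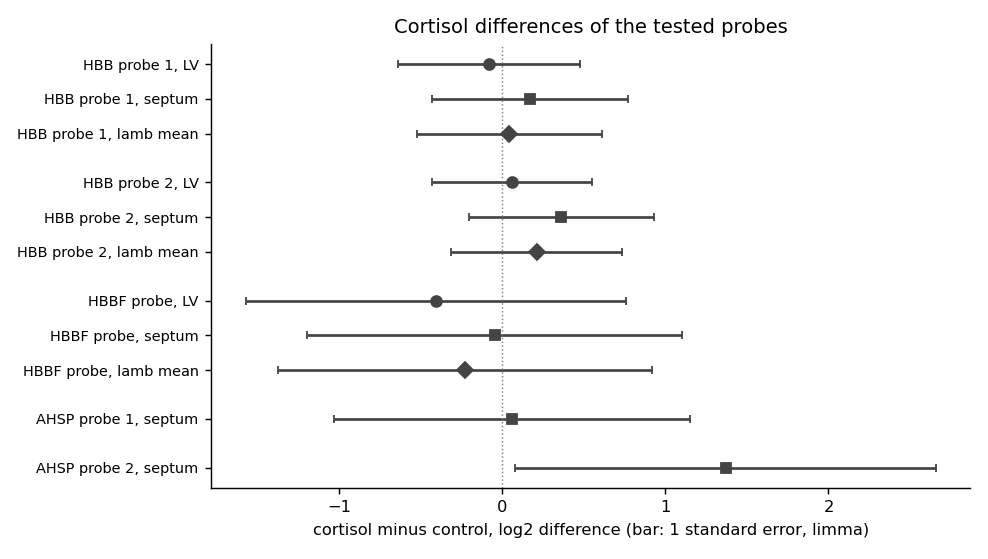
Cortisol minus control difference in log2 units (x axis; bars, 1 standard error from limma) of the globin and AHSP probes that were tested, in LV (circles), septum (squares) and the lamb means (diamonds). The bar of AHSP probe 2 in septum, at 1.37 ± 1.29, rests on control arrays where the probe was not well above background; all other bars include 0.

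No treatment difference in the adult to fetal ratio passed the test, and control 1, whose ratio is a bound taken here at its measured value, bore on its size. HBB probe 1 minus HBBF averaged 6.12 ± 2.08 (SD, n = 5) in control and 6.45 ± 1.05 in cortisol lambs in LV, a difference of 0.33 ± 1.04 (SE; exact permutation test over all splits of the 10 lambs, two-sided p = 0.754). In septum it averaged 6.07 ± 2.08 and 6.28 ± 1.19, a difference of 0.22 ± 1.07 (exact permutation p = 0.857). With HBB probe 2 the differences were 0.47 ± 1.38 in LV and 0.41 ± 1.36 in septum (exact permutation p = 0.714 and 0.778). The lamb means gave 0.27 ± 1.05 with probe 1 and 0.44 ± 1.37 with probe 2 (exact permutation p = 0.825 and 0.77). Without control 1 the difference with probe 1 was 1.18 in LV and 1.08 in septum (exact permutation p = 0.111 and 0.19), and with probe 2 it was 1.56 and 1.48 (exact permutation p = 0.151 and 0.175). Without control 5 it was -0.12 and -0.21 with probe 1. The smallest two-sided p of this design, with all 10 lambs, is 0.00794. The lowest 3 lambs by HBB probe 2 minus HBBF were all control lambs, but so was the highest, control 1 at its measured value. With HBB probe 1, cortisol 1 (5.23) lay below control 2 (5.24) as lamb means.

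The cortisol difference was not shown to vary between the walls. Taken in septum minus that in LV, it was 0.25 ± 0.87 (SE) for HBB probe 1, 0.30 ± 0.80 for HBB probe 2 and 0.36 ± 1.76 for HBBF (limma, adjusted p = 1.0 each), and 0 of 10069 probes passed, 0% (38 at an unadjusted p under 0.05). With the lamb as a block the SEs were 0.41, 0.36 and 0.78 and the calls were the same number (406 at an unadjusted p under 0.05).

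The other red cell genes on the array were few. Of 43 red cell genes listed, 7 had a named probe, among them AQP1, the water channel of red cells and endothelium, and EPOR, the erythropoietin receptor. AQP1 was at 0.51 ± 0.37 (SE) in LV and 0.52 ± 0.33 in septum as cortisol minus control (limma, adjusted p = 0.88 and 0.818). CA1, the red cell carbonic anhydrase, was well above background on 0 of 20 arrays. In LV, 5 of the 7 were tested, 2 with a positive and 3 with a negative difference, with a median of -0.05 against -0.01 over all probes. In septum 6 were tested, 5 positive and 1 negative, with a median of 0.14 against 0.03. None passed, and the list holds the 3 genes described here. Among the other red cell genes AQP1, which endothelium also expresses, read -1.07 in LV and -0.93 in septum of control 2 and -0.55 and -0.45 in cortisol 3, all above its group means. EPOR ran the other way in control 2, at -4.66 in LV and -4.72 in septum, below its control means of -4.42 and -4.03. In cortisol 3 EPOR was at -3.25 and -3.52, above its cortisol means of -3.69 and -3.78. The listed gene LOC100147796 was above its group means in both lambs and both walls.

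Genes that surround haemoglobin in the cell were also sparsely covered, and none passed in either wall. Haem synthesis had 2 of 12 listed genes: UROD, which makes coproporphyrinogen, and SLC25A38, which imports glycine into mitochondria. UROD was at 0.22 ± 0.18 in LV and 0.18 ± 0.15 in septum (limma, adjusted p = 0.884 and 0.818), and SLC25A38 at -0.04 ± 0.24 and 0.05 ± 0.25 (adjusted p = 0.982 and 0.964). Iron handling had 3 of 13, of which FTH1, the ferritin heavy chain, was at 0.32 ± 0.27 and 0.42 ± 0.23 and TF, transferrin, at 0.20 ± 0.31 and 0.34 ± 0.40 (adjusted p = 0.885, 0.818, 0.928 and 0.842). Among erythroid regulators 5 of 20 were present; EPO, the hormone that drives red cell formation, was not well above background on any array, and KITLG, a growth factor of progenitors, was at 0.10 ± 0.43 and 0.13 ± 0.31 (adjusted p = 0.974 and 0.926). The other globins on the array were MB, at 0.06 ± 0.28 and 0.31 ± 0.19, and cytoglobin, CYGB, at 0.30 ± 0.22 and 0.19 ± 0.18 (adjusted p = 0.976, 0.818, 0.88 and 0.826). All 4 oxygen sensing genes with a probe (HIF1A, EPAS1, ARNT and VEGFA) had positive differences in both walls, where 48.7% of all probes in LV and 54.7% in septum were positive. The largest was that of HIF1A, the oxygen-labile subunit of the hypoxia factor, at 0.87 ± 0.47 and 0.79 ± 0.40 (adjusted p = 0.88 and 0.818). No gene for haem and haemoglobin clearance had a named probe.

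The summed neutrophil markers were highest in control 2 and cortisol 3, the lambs with the most AHSP signal, while other leukocyte markers were mixed. The neutrophil list had 4 of 15 genes, all well above background on some array: the antimicrobial cathelicidins BAC5, CATHL3 and SC5, and lactoferrin, LTF. Their summed signal on the same log2 scale ran from -3.07 to 3.71 in LV control, -4.07 to 2.19 in LV cortisol, -3.67 to 3.48 in septum control and -4.71 to 2.87 in septum cortisol. The highest array was that of control 2 or cortisol 3 in each group, and the next highest stood at -0.59, -0.91, -0.59 and -0.31. The leukocyte list, 6 of 10 genes with CD4 well above background on 0 arrays, summed to at most 0.50, 0.29, 0.15 and 0.48 in the same groups, again highest in control 2 and cortisol 3. The next highest leukocyte sums stood at -0.11, 0.09, 0.06 and 0.18. The members of this list were split. The T cell receptor chains CD3D and CD3E were highest in cortisol 3 in both walls. CD86 was highest in cortisol 4 in LV and in cortisol 3 in septum. CD14, a monocyte receptor, was highest in cortisol 2 in both walls. ITGB2, a leukocyte integrin, was highest in control 2 in both walls. In septum of cortisol 3 it was at -2.30, below the cortisol mean of -1.99. The endothelial list, 7 of 11 genes with SELE well above background on 0 arrays, ran from 2.89 to 4.61 over all groups. Its sum was highest in cortisol 3 in both walls of the cortisol lambs. PECAM1 gave most of that sum, with control means of 3.64 in LV and 3.63 in septum. Its members were also split. PECAM1, KDR and NOS3 were highest in cortisol 3 in both walls. TIE1 was lowest there, at -3.22 in LV and -3.93 in septum, and EDN1 in septum was highest in cortisol 2. No platelet gene had a named probe. The part of white or endothelial cells in the globin values was not tested.

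The named genes most like each member over the 20 arrays, after the mean of each wall was taken out, differed between the HBB probes and HBBF. For HBB probe 1 they were CCN1, a secreted matrix protein (r = 0.79), the cathelicidins CATHL3 and CATHL1B (0.713 and 0.701), SMAD7, an inhibitor of TGF-beta signalling (0.676), and BAC5 (0.655). For HBB probe 2 they were the T cell receptor chain CD3E (0.754), CCN1 (0.753), CD3D (0.751), the endothelial nitric oxide synthase NOS3 (0.71) and AQP1 (0.696). For HBBF they were AURKA, a mitotic kinase (0.716), TSPO, a mitochondrial membrane protein (0.695), SLCO2A1, a prostaglandin transporter (0.684), HBB by probe 1 (0.645) and PCNA, the DNA replication clamp (0.639). For AHSP probe 1 they were SMAD7 (0.839), AQP1 (0.819), BAC5 (0.817), CCN1 (0.801) and GATA3, a T cell transcription factor (0.793). The points are 2 arrays from each of 10 lambs, and unnamed probes ranked among them: AURKA was 24th of 9928 probes for HBBF and CCN1 4th for HBB probe 1. With array scaling, the log2 75th percentile itself correlated with HBBF at r = 0.411 in LV and 0.433 in septum, and with HBB probe 1 at 0.282 and 0.293 (10 arrays each; adjusted permutation p = 0.368, 0.325, 0.616 and 0.549).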

How the data were processed

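Spots were read with Agilent Feature Extraction 10.1.1.1, per the submitters' processing notes, which also name limma. Per the file headers, the authors' processed intensity is background-subtracted and detrended, with surrogate values at background; raw and local background intensity served for 1 alternative. The deposited value table holds log2 values by the authors, with a normalization not given in the sources used here; its walls were normalized separately, and it lists no HBBF and AHSP values in septum. Per the labels, 100 ng of RNA was labelled.

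Here log2 intensity minus each array's 75th percentile was used. Outlier spots were left out. Probes were tested when well above background on at least 5 of 10 arrays of a wall, or 10 of 20 arrays, with limma 3.58.1 in R 4.3.3 (two-sided, Benjamini-Hochberg over all probes tested, adjusted p under 0.05), tested on simulated data first. Ratios used exact permutation tests, and correlations used 100000 permutations (Python 3.11.15, scipy 1.17.1), adjusted over 36 relations. The number of arrays limits the precision. Cortisol differences within a wall or of lamb means were set against the spread between these lambs. The main fits across walls took the 20 arrays as independent, although each lamb gave an array of both walls.

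Groups came from the labels. Control and cortisol lambs with the same number were not taken as pairs in the main tests, although 4 of 5 pairs in LV and 3 of 5 in septum correlated over 0.1. These correlations reached at most 0.288 in LV and 0.273 in septum, and the own number was highest for 3 of 5 in each wall. A block on the number was run as an alternative. Gene names came from the scanner files and the RefSeq gene table of assembly ARS-UI_Ramb_v3.0 (1395 of 15008 probes, 861 genes). The members, gene lists and the rule for named genes (members, list genes and the 5 named genes most like each member) were chosen with earlier results of these data known. Alternatives covered background correction, scaling, filter, slide, blocks, single lambs and, added after seeing the data, the other HBB and AHSP probe. The submitters' comparison with earlier data from term fetuses was not analysed here.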

Additional observations from a re-analysis of the deposited data

Results flagged for a closer look

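HBB in LV of control 2 lay far from the other 4 control lambs, with a gap to the nearest of over 0.710 of the group's range. HBB probe 1 read 6.95 there against 3.59 to 4.55 in the others, and HBB probe 2 read 5.49 against 3.03 to 3.66. Of 32 groups of 5 values examined, these 2 stood out; chance picks about 1 in 20. The septum array of the same lamb read 6.89 and 5.58.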

How the results depend on the processing

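None of the cortisol or wall differences of HBB, HBBF or AHSP passed the test in any setting, and their signs were not stable. As cortisol minus control, HBB probe 1 in LV was 0.86 within slide 2 (1 cortisol array), and the other HBB probe gave 0.0586. In septum it was -0.0196 in the deposited value table and -0.52 within slide 1. HBBF in septum was 0.18 within slide 2, and AHSP in septum was -0.054 with quantile normalization and -0.0724 within slide 2. For the lamb means HBB was -0.12 (deposited table), -0.042 (normexp), -0.18 (quantile) and -0.078 (slide block). HBB minus HBBF was -0.071 in LV and -0.0154 for the lamb means with quantile normalization. With normexp its SD was 0.42 in control and 0.85 in cortisol lambs in LV, and 1.09 and 1.90 in septum. The control lambs thus had the smaller spread there, the reverse of the main setting. Septum minus LV of HBB was -0.0182 in control lambs, -0.11 with normexp, -0.0699 with quantile normalization and -0.0915 within slide 2, and that of HBBF was -0.0432 with normexp. The probes called between the walls, 55, were 1 with normexp, 118 with no filter, 0 with slide as a block, 0 within slide 2, 174 in control lambs, 0 in cortisol lambs and 2065 with the lamb as replicate block (limma; 611, 815 and 161 at an unadjusted p under 0.05 where 0 passed). Leaving out 1 lamb gave 5 (control 2, control 3 or control 4) to 313 (cortisol 5).

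Leaving out 1 lamb at a time, HBB ran from -0.35 to 0.49 in LV, -0.0735 to 0.74 in septum and -0.21 to 0.62 for the lamb means. HBBF ran from -1.53 to 0.38, -1.15 to 0.73 and -1.34 to 0.56. For both genes the lowest value came without control 1 and the highest without control 2. AHSP in septum ran from -0.85 (without cortisol 3) to 0.80 (without control 2). HBB minus HBBF ran from -0.12 to 1.18, -0.21 to 1.08 and -0.16 to 1.13, from without control 5 to without control 1. A replicate block on the number shared by control and cortisol lambs left 0 probes called in LV and septum (limma; 604 and 678 at an unadjusted p under 0.05) and gave p = 0.875, 0.938 and 0.938 for HBB minus HBBF (exact sign flips); it changed no other call.

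Among correlations, the gap between the HBB probes against HBBF kept its sign in every setting run and passed in all but LV without the 2 farthest lambs (0.827). Those of AHSP with HBB crossed the threshold in some settings and changed sign in others. Adjusted p-values covered 36 relations in the main setting, when centred and without the 2 farthest lambs, and fewer relations in the other settings. A crossing with median scaling or in the deposited table can thus come from the smaller number of relations. With HBB probe 1, AHSP gave 0.723 in LV and 0.706 for the lamb means when centred within treatment, and 0.685, 0.678 and 0.707 in LV, septum and the lamb means with median scaling, all past the threshold, but -0.24 in septum without the 2 farthest lambs and -0.23 with normexp. With HBB probe 2 it gave 0.733, 0.703 and 0.719 when centred, 0.724, 0.705 and 0.731 with median scaling and 0.709 in LV of the deposited table, all past it, but -0.17, -0.31 and -0.30 without the 2 farthest lambs and -0.28 in septum with normexp. Single lambs moved these from 0.511 to 0.77, 0.468 to 0.774 and 0.515 to 0.77 with HBB probe 1, and from 0.561 to 0.777, 0.516 to 0.86 and 0.579 to 0.834 with HBB probe 2. AHSP with HBBF was -0.35, -0.16 and -0.30 without the 2 farthest lambs and ran from -0.0312 to 0.548, -0.18 to 0.36 and -0.12 to 0.474 over single lambs. HBBF with HBB probe 2 was -0.35, -0.12 and -0.25 without the 2 farthest lambs, -0.0182 in septum with normexp, and ran from -0.36 to 0.326, -0.15 to 0.342 and -0.26 to 0.326. HBBF with HBB probe 1 was 0.752 in LV of the deposited table, past the threshold, and -0.0289 for the lamb means without the 2 farthest lambs. The HBB probes with each other no longer passed without the 2 farthest lambs (0.642 in LV, 0.75 in septum) or within a slide (0.859 and 0.891), and ran from 0.533 to 0.83 in LV over single lambs. Without control 2 and cortisol 3 most AHSP values were not well above background, so those correlations say little. Between the walls, AHSP fell to 0.468 without the 2 farthest lambs and 0.315 with normexp, and HBB probe 1 minus HBBF to 0.656 with normexp. The cause of these changes was not tested.

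The deposited table could not be used for septum minus LV, since its walls were normalized separately, nor for HBBF and AHSP in septum. Signal over background limits AHSP, and HBBF in control 1.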
